A study of Mus musculus with 45 samples.

Results

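Chemokines, interleukins and their receptors were followed in mouse induced pluripotent stem cells (iPSCs), cells returned to a pluripotent state from a somatic cell. The genes were chosen by symbol in the array annotation: Ccl, Cxcl, Ccr or Cxcr with a digit after it, or Il with a digit after it, leaving out Cxcr4 and Il6st. There were 111 such genes, 107 of them measured in both deposited tables. The table of passages 4, 6 and 16 held 109 of them among 11807 genes, and the table of passage 10 held 109 among 12394 genes. By role, the first table held 20 CC chemokines, 12 CXC chemokines, 13 chemokine receptors, 31 interleukins, 29 interleukin receptor chains and 4 antagonists, binding proteins or enzymes.

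Chemokines are small secreted proteins that draw leukocytes along a gradient through G protein-coupled receptors. Interleukins signal through cytokine receptors that mainly use JAK kinases and STAT factors, while interleukin-1 and interleukin-17 receptors act through adaptor proteins that switch on NF-kB. Fibroblasts, the cells used as feeders for pluripotent cells, are a known source of several of these ligands, among them Cxcl12, Ccl2 and Il6.

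The study used 45 arrays in 15 groups of 3 clones, all from a secondary reprogramming system in which iPSCs are derived from somatic cells of mice. From mouse 2 came T cell lines, B cell lines, lines of bone marrow granulocytes (Gra) and lines of fibroblasts grown from the tail tip (TTF), each at passages 4, 10 and 16. From mouse 1 came lines of muscle precursors taken from skeletal muscle (SMP), at passage 6, and Gra lines at passages 16 and 4. All lines grew with serum and LIF on irradiated mouse embryonic fibroblasts, which were reduced by preplating for 45 minutes before RNA extraction. The clones of a group came from 1 mouse, so that each p-value covers the spread between clones only. Comparisons of mouse 2 with mouse 1 hold 1 mouse on each side, and their p-values do not cover the spread between mice. Whole-culture RNA cannot tell fewer cells of a kind from less RNA per cell.

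Values are robust multi-array average (RMA) levels on the log2 scale. The 2 tables come from different array platforms and were normalized separately, and no fold change was taken between them. The iPSC label held in the pluripotency markers. The 9 such genes of the first table averaged 11.21 to 11.63 on 30 arrays and 11.36, 11.38 and 10.54 in the 3 clones of Gra lines of mouse 2 at passage 16. Of 6 pan-leukocyte genes, Ptprc lay between 2.66 and 3.70, but Laptm5 lay between 6.93 and 8.93 and Coro1a between 6.39 and 8.27. Lcp2, Cd52 and Cd53 lay between 3.63 and 6.02. In one granulocyte array, clone 3 of mouse 2 at passage 16, the 109 genes had a median of 4.79, against 4.11 and 3.98 in its sister clones. The lower quartile of all genes on that array was 5.29, against 4.75 and 4.67, and its mean correlation with its sister clones was 0.9222. It was the highest of 33 arrays for 68 of the 109 genes (62.4%) and for 32.1% of all genes. Clone 3 of the T cell lines at passage 16 had a median of 4.44, against 4.04 and 4.09 in its sister clones. Both arrays also enter the spread of all other comparisons of that table.

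**Figure D1:**
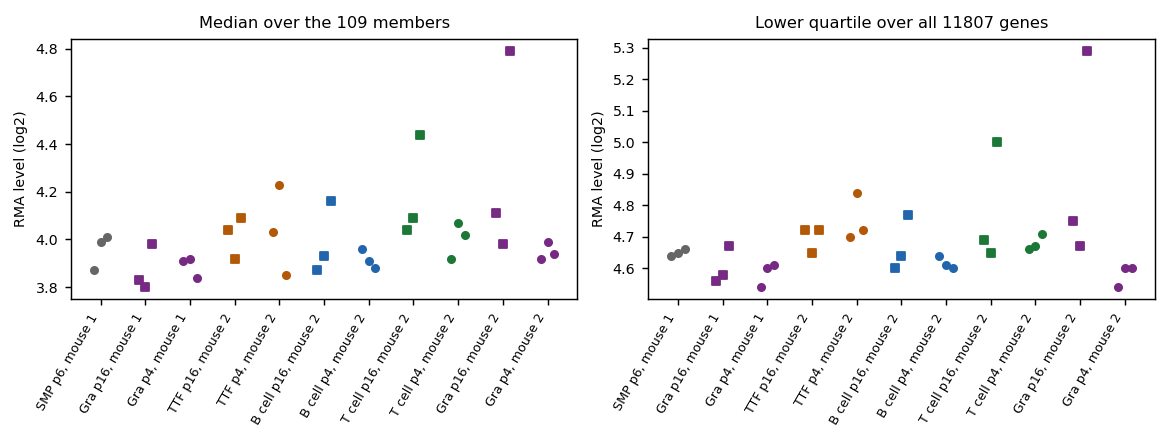
Median level of the 109 chemokine, interleukin and receptor genes (left) and lower quartile of all 11807 genes (right) on each of 33 arrays, in log2 RMA units; circles are passages 4 and 6, squares passage 16, 3 clones a group. Clone 3 of the granulocyte lines of mouse 2 at passage 16 stands highest in both panels, at 4.79 and 5.29.

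Most of these genes gave signals near the lower end of the scale. In the table of passages 4, 6 and 16, 81 of 109 genes lay in the lowest quartile of all genes by mean level, under 4.72, and 2 lay above the median gene of 6.98. In the passage 10 table, 67 of 109 lay in the lowest quartile and 0 above the median gene of 7.72. A level of one probe set cannot be read as the abundance of its RNA relative to another, so these positions describe signal on the array only.

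By class, the 13 chemokine receptors of the first table all lay in the lowest quartile, with a median of 3.31. The CC chemokines had a median of 4.43, the CXC chemokines 3.89, the interleukins 3.79 and the interleukin receptor chains 4.35. The brightest members were Cxcl14, a chemokine made constitutively by epithelia, at 7.76, and Ccl25, a chemokine of thymus and gut, at 7.68. Among interleukins these were Il23a, a subunit of interleukin-23, at 6.66 and Il17b at 6.24. Among receptor chains they were Il17ra, the shared receptor chain of the interleukin-17 family, at 6.81 and Il21r at 6.33. At passage 10 the brightest were Il17ra at 7.48, Cxcl12 at 7.46 and Cxcl11 at 7.41.

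**Figure D2:**
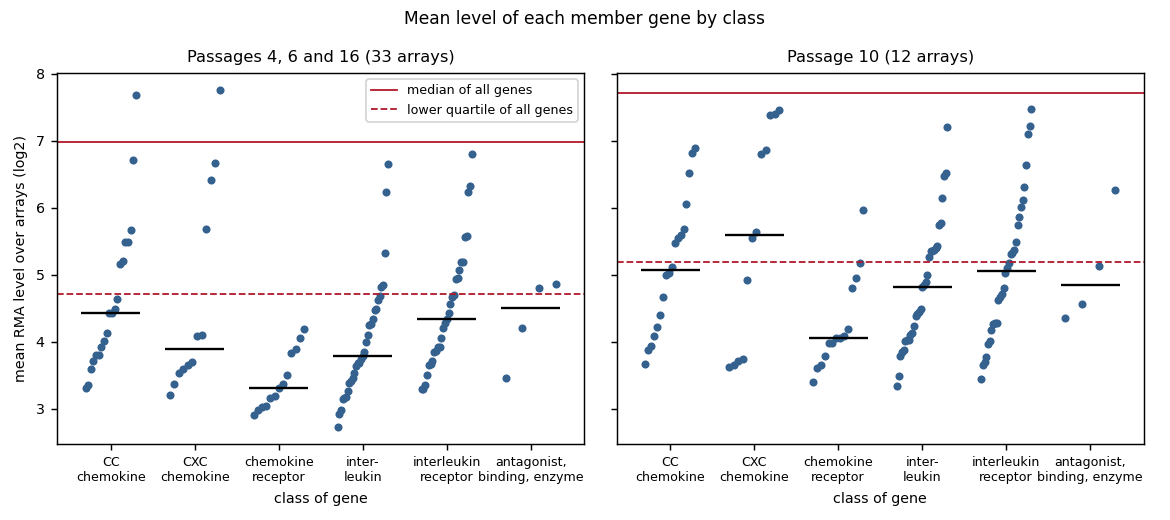
Mean RMA level (log2) of each gene over the 33 arrays of passages 4, 6 and 16 (left) and the 12 arrays of passage 10 (right), by class; the short black lines are class medians, the red lines the median (solid) and lower quartile (dashed) of all genes. In the left panel all chemokine receptors lie under the dashed line and 2 genes lie above the solid one.

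At passage 4 the lines of mouse 2 were compared by cell of origin. Among the 109 genes, 13 differed among the 4 origins in limma's moderated F-test at an adjusted p under 0.05, which is 11.9% of them, beside 39.0% of all genes. Without the granulocyte array that stood apart they were 22, beside 51.2% of all genes, and without both such arrays 28, beside 54.9%. The 13 were 4 CXC chemokines, 2 CC chemokines, 5 interleukins, 1 interleukin receptor and 1 enzyme, and 0 of 13 chemokine receptors. Cxcl12, Cxcl14, Cxcl16, Il17d, Il23a, Il4i1 and Il6 kept this call under every alternative that held them. Gra lines had the lowest mean for 7 of the 13 genes and T cell lines the highest mean for 6. The like shares among all called genes were not taken.

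The gene with the lowest adjusted p was Cxcl16, a membrane-bound chemokine whose receptor is Cxcr6. Its levels were 7.31, 7.32 and 7.61 in TTF lines, 7.21, 7.93 and 7.42 in T cell lines, 5.94, 5.99 and 6.53 in B cell lines, and 6.18, 5.85 and 6.03 in Gra lines. TTF and T cell lines were thus high and B cell and Gra lines low, with no overlap between the pairs (adjusted p = 2.6e-06 among the 4 origins). Against the mean of the other 3 origins, Cxcl16 was higher by 0.99 ± 0.18 in T cell lines (log2, SE, adjusted p = 0.00029) and by 0.85 ± 0.18 in TTF lines (adjusted p = 0.0015). It fell by 1.01 ± 0.18 in Gra lines (adjusted p = 0.00018), and by 0.83 ± 0.18 in B cell lines (adjusted p = 0.0044), where the call was lost without B cell clone 1 (adjusted p = 0.058) or 2 (adjusted p = 0.055).

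Cxcl12, the stromal chemokine that holds blood progenitors in bone marrow, was lowest in Gra lines. Its levels were 5.44, 5.40 and 5.71 in Gra lines, against 7.30, 7.01 and 7.30 in B cell lines, 7.05, 6.92 and 6.83 in T cell lines and 6.22, 7.35 and 6.01 in TTF lines. All 3 Gra clones lay under all 9 others, and the difference from the other 3 origins was -1.37 ± 0.23 (adjusted p = 6.5e-05). A further, dimmer probe set of Cxcl12 gave -0.47 for the same contrast. Cxcl12 was higher in B cell lines than in the other 3 origins by 0.87 ± 0.23 (adjusted p = 0.013), a call lost without B cell clone 1 (adjusted p = 0.083) or 3 (adjusted p = 0.058). Of 8 endoderm markers, 6 were higher in B cell lines than in the other 3 origins and 0 lower, with mean levels per array of 6.32 to 7.42 in B cell lines, 5.19 to 6.01 in TTF lines, 4.98 to 5.46 in T cell lines and 5.13 to 5.35 in Gra lines. The part of these markers in the B cell values of Cxcl12 was not tested.

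Cxcl14 stood at 8.78, 8.82 and 8.65 in T cell lines, against 7.30, 7.38 and 7.25 in Gra lines, 7.30, 7.74 and 7.39 in B cell lines, and 7.21, 7.70 and 9.06 in TTF lines. T cell clones were high throughout, while TTF clones spread over the whole range of the other origins. The T cell difference from the other 3 was 1.16 ± 0.29 (adjusted p = 0.0052).

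Among interleukins, Il23a had the same order at its ends. It was at 7.85, 7.85 and 7.55 in T cell lines, against 6.88, 6.29 and 7.42 in TTF lines, 6.47, 6.36 and 7.07 in B cell lines and 6.15, 5.90 and 6.35 in Gra lines. The T cell clones lay above the 9 others, with a difference of 1.20 ± 0.22 (adjusted p = 0.00028), and Gra lines were lower than the other 3 origins by a log2 difference of -0.95 ± 0.22 (adjusted p = 0.0022). Il6, the inflammatory cytokine that signals through the shared chain Il6st, was at 3.92, 3.39 and 3.26 in T cell lines, against 3.48, 3.34 and 2.98 in TTF lines, 2.85, 2.93 and 2.94 in B cell lines and 2.82, 2.68 and 2.92 in Gra lines. T cell and TTF clones overlapped, and B cell and Gra clones lay under both (adjusted p = 0.0081 among the 4 origins). All these Il6 levels lay under the lower quartile of all genes, 4.72. The nearest TTF and B cell clones stood at 2.98 and 2.94.

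Il17d, a ligand of the interleukin-17 family, was highest in Gra lines. It was at 5.21, 4.77 and 4.87 in Gra lines, against 3.69 to 4.48 in the 9 other lines. The Gra clones were all above them, by 0.87 ± 0.18 (adjusted p = 6e-04), and a second probe set gave 1.03.

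TTF lines held the highest levels of Il4i1, an enzyme that oxidizes amino acids and is induced by interleukin-4. The levels were 5.68, 6.30 and 6.20 in TTF lines, against 5.17, 5.67 and 5.04 in T cell lines, 4.38, 4.32 and 4.73 in B cell lines and 4.34, 4.71 and 4.31 in Gra lines. The TTF clones lay above the 9 others, with a difference of 1.32 ± 0.24 (adjusted p = 0.00033). Il15, a survival factor of natural killer cells, was at 3.68, 5.39 and 4.32 in TTF lines, against 3.10 to 3.72 in the 9 other lines, and differed by 1.03 ± 0.20 (adjusted p = 0.00074). TTF clone 1 lay within the range of the other lines and clone 2 well above it, and without clone 2 the call of Il15 among the 4 origins was lost (adjusted p = 0.052). Il34, a ligand of the receptor Csf1r, was higher in TTF lines, with the lowest TTF clone inside the Gra range, by 0.81 ± 0.18 (adjusted p = 0.0025) and by 0.57 without clone 2 (adjusted p = 0.074).

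In counts per origin, TTF lines had 4 genes higher and 0 lower, beside 11.7% of all genes higher and 7.85% lower (19.5% called). T cell lines had 6 higher and 1 lower, beside 12.3% and 6.42% of all genes (18.8%). B cell lines had 1 higher and 2 lower, beside 3.80% and 6.34% (10.1%). Gra lines had 5 higher and 7 lower, beside 8.33% and 14.8% (23.1%). Without both arrays that stood apart TTF lines had 10 higher and 0 lower, beside 31.3% of all genes called and 13.3% lower. T cell lines then had 7 higher and 3 lower, beside 17.4% and 10.7% of all genes. For B cell lines the counts were 2 and 9, beside 8.22% and 11.4%, and for Gra lines 11 and 14, beside 13.7% and 20.2%. In Gra lines the further 8 calls were each lost when 1 Gra clone was left out. Il1r1, the signalling receptor of interleukin-1, was 0.67 ± 0.19 higher and 0.37 higher without clone 2 (adjusted p = 0.25), a clone at 6.15 beside 5.42 and 5.08. Cxcl1 and Cxcl2, attractants of neutrophils, were 0.43 ± 0.15 and 0.59 ± 0.21 higher, with adjusted p = 0.24 and 0.3 without clone 1. Ccl25 had a difference of -0.52 ± 0.19, with adjusted p = 0.16 without clone 2, and Ccl27a, a skin chemokine with near-identical copies in the genome, one of -0.48 ± 0.14, with adjusted p = 0.1 without clone 2. Il6 had a difference of -0.43 ± 0.15 (adjusted p = 0.19 without clone 2), Il4i1 one of -0.83 ± 0.24 (adjusted p = 0.075 without clone 1), and Cxcr6 one of 0.33 ± 0.11, with adjusted p = 0.25 without clone 1 and -0.24 at its other probe set.

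Markers of fibroblasts and feeders also differed among origins at passage 4. Of 25 such genes measured, 14 were higher in T cell lines than in the other 3 origins and 0 lower, and 7 were lower in TTF lines with 1 higher. Their mean level per array was 7.50 to 7.77 in T cell lines, 6.99 to 7.16 in Gra lines, 6.71 to 6.92 in TTF lines and 6.71 to 6.81 in B cell lines. The Cxcl16 levels of TTF clones lay within the T cell range. The part of these markers in the T cell values of Cxcl14, Cxcl16 and Il23a, and in the TTF values of Cxcl16, was not tested.

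**Figure D3:**
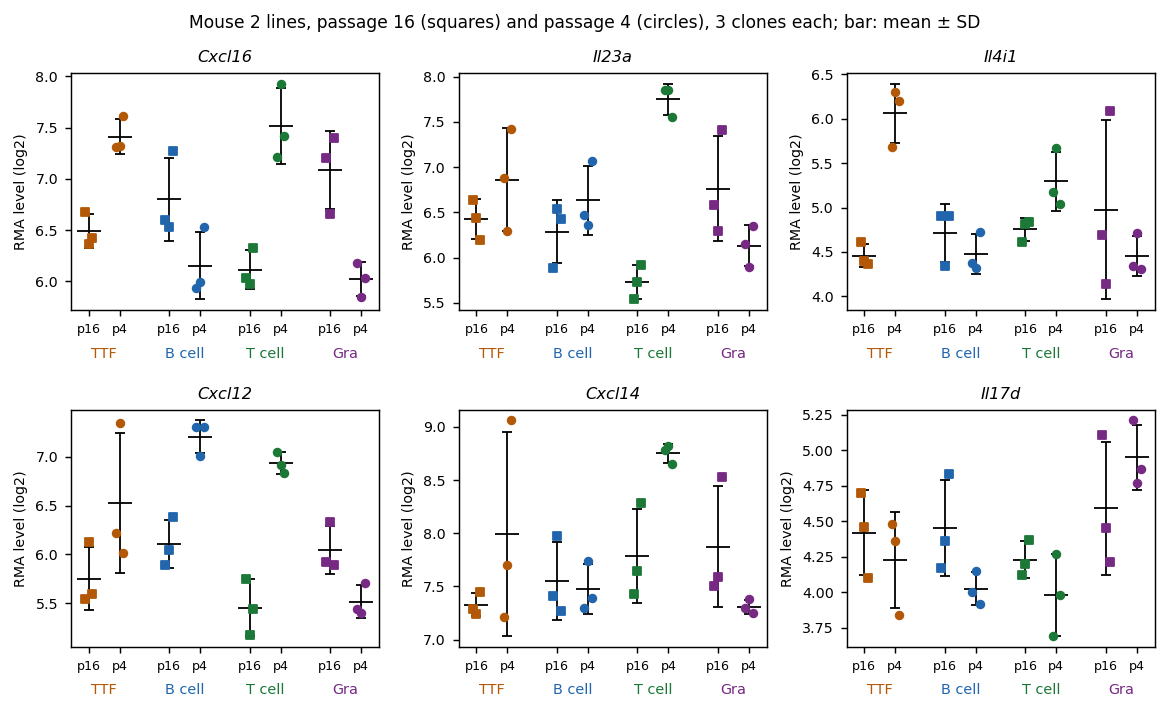
Levels (log2 RMA) of 6 genes in the lines of mouse 2, with passage 16 (squares) left of passage 4 (circles) within each origin; points are 3 clones, bars the mean ± SD. In T cell lines Cxcl16 was at 5.98 to 6.33 at passage 16, against 7.21 to 7.93 at passage 4, and Il23a at 5.54 to 5.92, against 7.55 to 7.85.

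At passage 10, in the other table, 15 of 109 genes differed among the 4 origins (13.8%), beside 32.2% of all genes. Ccl2, Ccl7, Cxcl10, Cxcl11, Cxcl12, Cxcl14, Il15ra, Il17d, Il23a and Il6 kept the call under every alternative that held them. Gra lines had the highest or the lowest mean for all 15 of these genes. The like share among all called genes was not taken, so this count cannot be read as particular to them. Gra lines had 8 genes higher and 14 lower than the other 3 origins, beside 21.1% and 17.2% of all genes (38.2% called). TTF lines had 7 higher and 4 lower, beside 5.30% and 8.46% (13.8%), and B cell and T cell lines had 0 calls each, beside 0.0645% and 0.0242% of all genes. In these 2 origins 13 and 10 genes had an unadjusted p under 0.05 in limma.

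Cxcl12, Ccl2, Ccl7 and Il6 had their lowest mean in Gra lines and their highest in TTF lines. Cxcl12 was at 6.82, 6.72 and 6.73 in Gra lines, 8.14, 8.38 and 8.42 in TTF lines, 7.48, 7.33 and 7.18 in B cell lines and 7.59, 7.02 and 7.64 in T cell lines. Gra clones lay under all others and TTF clones above all others, with differences from the other 3 origins of -0.93 ± 0.12 in Gra lines (adjusted p = 0.00011) and 1.15 ± 0.12 in TTF lines (adjusted p = 0.0013). The dimmer probe set of Cxcl12 gave -0.07 and 0.13 for these contrasts.

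Il6 was at 4.62, 4.52 and 4.05 in Gra lines, 5.77, 6.42 and 6.21 in TTF lines, 5.86, 5.49 and 5.19 in B cell lines and 5.44, 5.03 and 5.61 in T cell lines. Gra clones lay under all others, while the lowest TTF clone lay within the B cell range. The Gra difference was -1.27 ± 0.18 (adjusted p = 0.00018) and the TTF difference 1.04 ± 0.18 (adjusted p = 0.0054). Ccl2, the main attractant of monocytes, was at 6.19, 6.36 and 6.34 in Gra lines, 7.32, 7.55 and 7.40 in TTF lines, and 6.69 to 7.31 in B cell and T cell lines. The Gra clones lay under and the TTF clones above all others. It had a difference of -0.80 ± 0.11 in Gra lines (adjusted p = 2e-04) and 0.70 ± 0.11 in TTF lines (adjusted p = 0.0043). Ccl7, a related monocyte attractant, followed with -0.55 ± 0.12 in Gra lines (adjusted p = 0.0028) and 0.50 ± 0.12 in TTF lines (adjusted p = 0.019), the TTF call being lost without TTF clone 2 (adjusted p = 0.066) or 3 (adjusted p = 0.081).

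Cxcl10 and Cxcl11, interferon-induced chemokines that share the receptor Cxcr3, ran the other way. Cxcl10 was at 7.91, 7.78 and 7.92 in Gra lines, 6.72, 7.01 and 7.16 in TTF lines, 7.15, 7.33 and 7.21 in B cell lines and 7.13, 7.72 and 7.54 in T cell lines. Gra clones lay above all others, by 0.65 ± 0.11 (adjusted p = 0.00073), and TTF lines differed by -0.56 ± 0.11 (adjusted p = 0.011), a call lost without TTF clone 1 (adjusted p = 0.061) or 2 (adjusted p = 0.053). Cxcl11 was at 8.14, 7.54 and 8.52 in Gra lines, 6.63, 6.90 and 6.86 in TTF lines, and 7.12 to 7.73 in B cell and T cell lines, so that 1 Gra clone overlapped the T cell clones. Its differences from the other 3 origins were 0.88 ± 0.17 in Gra lines (adjusted p = 0.0014) and -0.81 ± 0.17 in TTF lines (adjusted p = 0.012). The TTF call of Cxcl11 was lost without TTF clone 1 (adjusted p = 0.06) or 2 (adjusted p = 0.053). Its dimmer probe set gave 0.04 and -0.04.

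The promoter windows of Il6, Cxcl12 and Cxcl10 are shown because these 3 genes carried the opposed pattern of passage 10. They come from RefSeq on GRCm38.p6, which listed a promoter for 83 of the 111 genes, and span 300 bases around the annotated start. Capitals mark matches, on either strand, to the kappa B motif of NF-kB, to the interferon-stimulated response element (GAAA, any 2 bases, GAAA) or to TGANTCA (AP-1). Il6 lies at chr5:30012864-30013163 (+), Cxcl12 at chr6:117168285-117168584 (+) and Cxcl10 at chr5:92348840-92349139 (-).
Il6: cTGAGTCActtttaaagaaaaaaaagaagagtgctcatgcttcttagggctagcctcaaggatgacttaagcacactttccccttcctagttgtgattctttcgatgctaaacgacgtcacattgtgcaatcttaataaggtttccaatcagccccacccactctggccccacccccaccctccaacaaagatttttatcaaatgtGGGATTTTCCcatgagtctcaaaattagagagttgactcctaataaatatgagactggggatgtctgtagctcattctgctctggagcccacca
Cxcl12: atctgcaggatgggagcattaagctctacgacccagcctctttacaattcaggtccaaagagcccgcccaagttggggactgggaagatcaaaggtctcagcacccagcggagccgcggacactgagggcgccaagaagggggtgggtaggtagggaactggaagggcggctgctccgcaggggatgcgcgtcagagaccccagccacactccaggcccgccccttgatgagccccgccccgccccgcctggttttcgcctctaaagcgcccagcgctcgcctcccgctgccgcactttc
Cxcl10: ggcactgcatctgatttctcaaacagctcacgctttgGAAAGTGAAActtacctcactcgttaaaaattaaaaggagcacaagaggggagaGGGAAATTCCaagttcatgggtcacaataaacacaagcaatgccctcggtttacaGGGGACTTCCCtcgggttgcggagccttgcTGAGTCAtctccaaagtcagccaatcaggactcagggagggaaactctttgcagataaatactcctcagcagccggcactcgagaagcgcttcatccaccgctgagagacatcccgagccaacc

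Il6 held 1 kappa B match and 1 AP-1 match, and Cxcl10 held 3 kappa B matches, of which 2 overlap, 1 interferon-stimulated response element and 1 AP-1 match. Cxcl12 held 0 of the 3 motifs in this window. Over all 32851 promoters of the table, 8.5% held the kappa B motif, 3.4% the interferon-stimulated response element and 7.8% TGANTCA. A match describes letters in the window and shows no binding.

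Among interleukins at passage 10, Il17d was at 4.72, 4.56 and 4.46 in Gra lines, against 5.17 to 5.98 in the 9 others, a difference of -1.05 ± 0.14 (adjusted p = 0.00012), with -0.17 at its dimmer probe set. Il23a was at 6.69, 6.83 and 6.95 in Gra lines, against 5.65 to 6.23 in the others, a difference of 0.89 ± 0.11 (adjusted p = 1e-04). Both genes thus stood at the opposite end of the origins from passage 4, where Gra lines were highest for Il17d and lowest for Il23a. Passage, array platform and separate processing of the tables cannot be told apart in this contrast. Il17b was at 7.23, 7.75 and 7.48 in Gra lines, against 6.96 to 7.21 in the others, 0.37 ± 0.09 higher (adjusted p = 0.0056).

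Of the receptors, Il15ra, the chain that presents interleukin-15, was at 6.16, 5.78 and 5.88 in Gra lines, 6.02, 6.45 and 6.10 in TTF lines, 6.52, 6.43 and 6.33 in B cell lines and 6.56, 6.86 and 6.70 in T cell lines. Gra clones overlapped TTF clones only, and the Gra difference was -0.50 ± 0.10 (adjusted p = 0.0023). Il1rap, the co-receptor of interleukin-1, was at 4.84, 4.87 and 4.78 in Gra lines, against 5.16 to 5.57 in the others, a difference of -0.47 ± 0.07 (adjusted p = 2e-04), and -0.06 and -0.04 at its other probe sets. Its call among the 4 origins was lost with the mean of probe sets (adjusted p = 0.065).

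The other 11 Gra calls at passage 10 were each lost when 1 Gra clone was left out, and ranged in difference from -0.40 (Il33) to 0.38 (Ccl27a). Il33, an alarm cytokine of the interleukin-1 family, had an adjusted p of 0.28 without Gra clone 2, and Il17rd one of 0.19 without that clone. Il18 had a difference of -0.37 ± 0.10, with adjusted p = 0.051 without clone 2. Cxcl14 had one of 0.35 ± 0.09, with adjusted p = 0.075 without clone 3 and -0.20 at its other probe set.

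Fibroblast and feeder markers moved with the passage 10 pattern. Of 29 such genes, 21 were lower in Gra lines with 1 higher, and 21 were higher in TTF lines with 0 lower. Their mean level per array was 8.07 to 8.11 in Gra lines, 8.94 to 9.10 in TTF lines, 8.41 to 8.58 in B cell lines and 8.41 to 8.81 in T cell lines. Their part in the values of Cxcl12, Ccl2, Ccl7 and Il6 was not tested. Whether these genes come from iPSCs or from residual feeders cannot be told apart in whole-culture RNA.

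**Figure D4:**
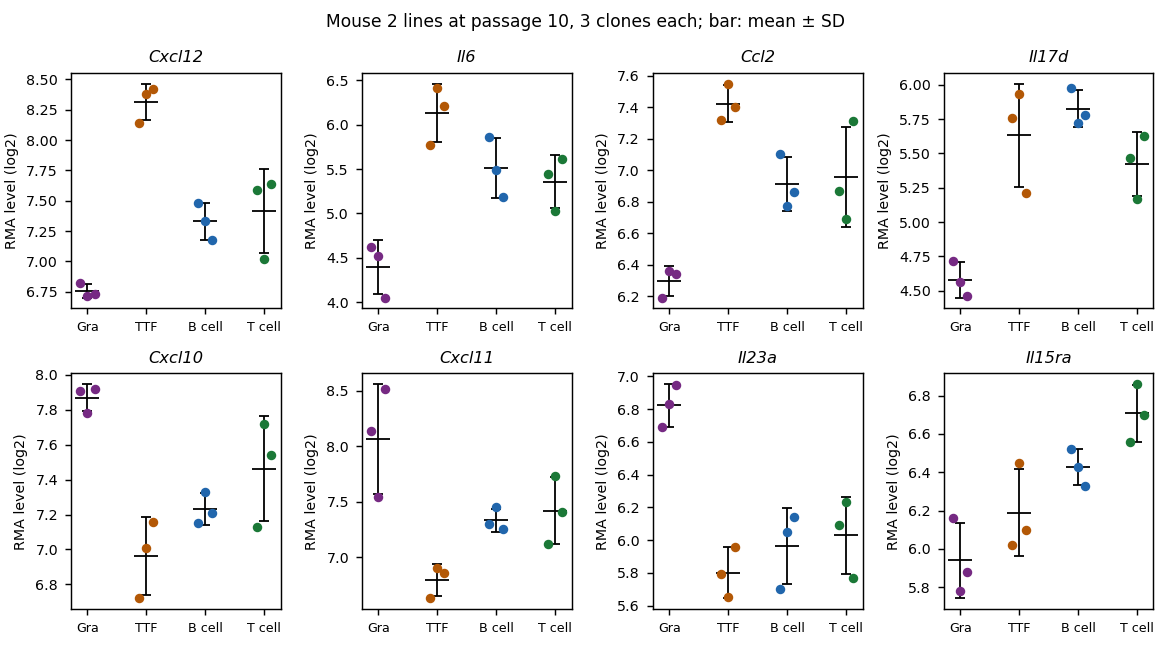
Levels (log2 RMA) of 8 genes at passage 10 in Gra, TTF, B cell and T cell lines of mouse 2; points are 3 clones, bars the mean ± SD. Gra lines lie lowest for Cxcl12, Il6, Ccl2 and Il17d and highest for Cxcl10, Cxcl11 and Il23a by mean.

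By passage 16 few differences by origin passed the test. Of the 109 genes, 1 differed among the 4 origins, beside 1.52% of all genes, while 21 had an unadjusted p under 0.05 in limma. This count ran between 0 and 23 when 1 array was left out, and the 23 came without clone 2 of the Gra lines of mouse 2 at passage 16. No share of all genes was taken beside the 23. The gene called with all arrays was Ccr8, a chemokine receptor of T helper and regulatory T cells, at 3.91, 3.77 and 4.23 in Gra lines, against 3.56, 3.43 and 4.02 in T cell lines, 3.42, 3.30 and 3.50 in TTF lines and 3.45, 3.41 and 3.48 in B cell lines, with 1 T cell clone inside the Gra range. Its adjusted p of 0.045 lay just under the threshold, and the call was lost when any of 26 arrays was left out (adjusted p = 0.051 to 0.11) and with quantile normalization (0.15). TTF and B cell lines had 0 calls, beside 0% of all genes each, and 7 and 9 genes had an unadjusted p under 0.05 in limma.

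T cell lines at passage 16 had 0 genes higher and 2 lower, beside 0.982% and 1.88% of all genes (2.86% called). Cxcl2 was at 3.04, 3.18 and 3.13 in T cell lines, with a difference of -0.81 ± 0.21 (adjusted p = 0.034), and Cxcl16 was at 6.03, 5.98 and 6.33, with -0.68 ± 0.18 (adjusted p = 0.042). Both calls were lost without T cell clone 1, at adjusted p = 0.12 for Cxcl2 and 0.14 for Cxcl16. Without the granulocyte array that stood apart T cell lines had 6 higher and 3 lower, beside 3.54% and 4.81% of all genes. Without both such arrays they had 0 of each, beside 0.838% and 1.88%. Gra lines had 4 higher and 0 lower, beside 1.70% and 0.864% of all genes (2.57% called), namely Ccr8, Ccr1l1, Il21 and Cxcl15, and the 4 calls were lost without the granulocyte array that stood apart. Without clone 2 of these Gra lines 39 were higher and 1 lower. The count of higher genes was 26 without Gra clone 1 and 17 without T cell clone 3. Shares of all genes were not taken in these settings, so these counts show dependence on single arrays and nothing particular to the genes. Summed over the origins, the 6 calls at passage 16 ran between 0 and 43 when 1 array was left out, so that the number of differences at passage 16 rests on single arrays.

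The change with passage was compared within each origin of mouse 2. In T cell lines 5 genes were higher and 5 lower at passage 16 than at passage 4, beside 7.49% and 10.4% of all genes (17.9% called). Il23a was at 5.54, 5.73 and 5.92 at passage 16, against 7.85, 7.85 and 7.55 at passage 4, a difference of -2.02 ± 0.27 (adjusted p = 1.1e-05). Cxcl16 was at 6.03, 5.98 and 6.33 at passage 16, against 7.21, 7.93 and 7.42 at passage 4, -1.40 ± 0.22 (adjusted p = 8.3e-05). Cxcl12 was at 5.75, 5.17 and 5.44 at passage 16, against 7.05, 6.92 and 6.83 at passage 4, -1.48 ± 0.28 (adjusted p = 0.00041). The passages did not overlap for these 3 genes, and each kept its call under every alternative that held it. The dimmer probe set of Cxcl12 gave -0.25. Il6 and Il17b were lower by log2 differences of -0.77 ± 0.18 (adjusted p = 0.0042) and -0.74 ± 0.18 (adjusted p = 0.0043), calls lost when only the arrays compared were fitted (adjusted p = 0.057 and 0.056). The 5 genes higher were Ccl28 (0.81), Ccl4 (0.67), Cxcl17 (0.56), Ccl3 (0.53) and Il1f8 (0.43). None of the 5 was called without clone 3 at passage 16, with differences of 0.54 for Ccl28, 0.55 for Ccl4, 0.51 for Cxcl17, 0.56 for Ccl3 and 0.32 for Il1f8 (adjusted p = 0.065 to 0.2). Without that clone and the Gra array that stood apart, 4 of them were called at these differences (adjusted p = 0.013 to 0.029) and Il1f8 was not (adjusted p = 0.11).

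In TTF lines 1 gene was higher and 5 lower at passage 16, beside 5.76% and 6.43% of all genes (12.2% called). Il4i1 was at 4.61, 4.40 and 4.37 at passage 16, against 5.68, 6.30 and 6.20 at passage 4, a difference of -1.60 ± 0.29 (adjusted p = 0.00054). Cxcl16 was at 6.68, 6.37 and 6.42 at passage 16, against 7.31, 7.32 and 7.61 at passage 4, -0.93 ± 0.22 (adjusted p = 0.0062). The other probe set of Cxcl16 gave -0.33. The passages did not overlap for either gene, and both calls were kept under every alternative that held them. Cxcl2 was higher by 0.87 ± 0.26 (adjusted p = 0.026; 0.14 without passage 16 clone 1).

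B cell lines had 2 genes higher and 1 lower, beside 5.51% and 2.49% of all genes (8.0% called). Cxcl12 was at 5.89, 6.05 and 6.38 at passage 16, against 7.30, 7.01 and 7.30 at passage 4, a difference of -1.09 ± 0.28 (adjusted p = 0.014; 0.064 with the mean of its probe sets and 0.053 without passage 4 clone 1). Il17rd, a receptor-like regulator of fibroblast growth factor signalling, was higher by 0.87 ± 0.24 (adjusted p = 0.026; 0.13 without passage 4 clone 3).

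In the main fit, which did not pair the passages of a line, Gra lines of mouse 2 had 24 genes higher and 2 lower at passage 16. Beside these, 22.0% of all genes were higher and 14.0% lower (36.0% called). The median difference was 0.31 over the 109 genes and 0.21 over all genes. Without the array that stood apart the counts were 4 higher and 3 lower, beside 13.3% and 6.82% of all genes, and the median differences 0.04 and 0.09. The counts were 49 higher and 1 lower without clone 2 at passage 16, and 5 higher and 1 lower without clone 1 at passage 4. Shares of all genes were not taken in these settings, so these counts show nothing particular to the genes. Il13ra1, a chain of the interleukin-13 receptor, was at 4.53, 4.11 and 4.44 at passage 16, against 5.98, 5.72 and 5.64 at passage 4, a difference of -1.42 ± 0.29 (adjusted p = 0.00071), and -1.46 without the array (adjusted p = 0.0023). Its 4 other probe sets gave -1.08, -0.39, -0.22 and 0.09. Cxcl16 was at 7.20, 6.66 and 7.40 at passage 16, against 6.18, 5.85 and 6.03 at passage 4, 1.07 ± 0.22 (adjusted p = 0.00084), and 0.91 without the array (adjusted p = 0.0079). The call was lost when only the arrays compared were fitted (adjusted p = 0.057). With each line as a block, which pairs its passages, Cxcl16 had 1.07 ± 0.19 (adjusted p = 0.0011) and Il13ra1 -1.42 ± 0.28 (adjusted p = 0.0021). Of the other 24 calls, 20 were lost without the array, among them Ccl9, a CC chemokine at 7.08 on it and at 4.33 and 3.94 in its sister clones.

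Other markers moved in these Gra lines too. Of 9 pluripotency genes 5 were lower and 0 higher at passage 16, with mean levels per array of 10.54 to 11.38 at passage 16 and 11.56 to 11.61 at passage 4. Of 10 granulocyte markers 5 were higher and 0 lower, with levels of 3.97 to 5.09 at passage 16 and 3.91 to 3.96 at passage 4, and of 8 endoderm markers 3 were higher and 0 lower, with levels of 6.39 ± 0.54 at passage 16 and 5.21 ± 0.12 at passage 4 (SD, n = 3 each). Fibroblast and feeder markers had 9 of 25 higher and 2 lower. Without the array that stood apart, 1 pluripotency gene was lower, 0 granulocyte markers, 3 endoderm markers and 7 fibroblast and feeder markers were higher. The part of these markers in the Gra values was not tested.

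Averaged over the 4 origins, 12 genes were higher and 6 lower at passage 16 (beside 16.6% and 12.4% of all genes, 29.0% called). Without the 2 arrays 6 were higher and 13 lower, beside 16.3% and 12.4% of all genes. Without clone 2 of Gra lines at passage 16 they were 29 higher and 7 lower, with no share of all genes taken. The calls of Il13ra1 (with other probe sets between -0.53 and 0.11), Il23a, Il6, Cxcl2, Ccl3, Il10 and Il2 were kept under every alternative that held them. Il6 differed by -0.39 ± 0.09 (adjusted p = 0.0024) and Cxcl2 by 0.42 ± 0.13 (adjusted p = 0.015). Without the 2 arrays Ccl3, Il10 and Il2 were higher by 0.25 ± 0.08, 0.19 ± 0.07 and 0.22 ± 0.07. Mean levels of Ccl3, Il10, Il2, Il6 and Cxcl2 were 3.4, 3.3, 4.0, 3.0 and 3.5, under the lower quartile of all genes, 4.72. Cxcl12 differed by -0.71 ± 0.14 (adjusted p = 0.00046), but its other probe set gave 0.62, so that no direction is given for the gene over all origins.

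The change with passage was unequal among the 4 origins for 8 of 109 genes, beside 32.8% of all genes. The count was 13 without the 2 arrays, beside 39.2% of all genes. It was 20 without clone 2 of Gra lines at passage 16, and 4 without Gra clone 1 or 2 at passage 4. No share of all genes was taken beside the 20 and the 4. Cxcl16, Il23a, Il4i1 and Cxcl12 kept this call under every alternative that held them. For Cxcl16 the change was -1.40 in T cell lines and -0.93 in TTF lines, against 0.65 in B cell lines and 1.07 in Gra lines (adjusted p = 3e-06). Gra clones lay above T cell clones at passage 16 and under them at passage 4. Without the 2 arrays the adjusted p was 5.8e-06. For Il23a the change was -2.02 in T cell lines and 0.63 in Gra lines (adjusted p = 0.00011), and for Il4i1 it was -1.60 in TTF lines and 0.52 in Gra lines (adjusted p = 0.0012). The Gra differences of Il23a and Il4i1 were not called in themselves, and were 0.30 and -0.03 without the Gra array that stood apart. For Il4i1 the test of unequal change had an adjusted p of 0.00012 without the 2 arrays. The passage comparisons and the origin comparisons share the arrays of passage 4.

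Fibroblast and feeder markers changed with passage too, unequally among origins for 17 of 25. Their mean level per array was 6.75 to 7.09 at passage 16 against 7.50 to 7.77 at passage 4 in T cell lines, and 7.41 to 7.58 against 6.71 to 6.92 in TTF lines. At passage 16, 9 of the 25 markers were lower and 0 higher in T cell lines, beside lower Cxcl12, Cxcl16 and Il23a. In TTF lines 12 were higher and 2 lower, beside lower Cxcl16 and Il4i1. In B cell lines the levels were 7.25 to 7.67 at passage 16 against 6.71 to 6.81 at passage 4, with 8 markers higher and 1 lower, beside lower Cxcl12. In Gra lines of mouse 2 they were 7.29 to 7.48 against 6.99 to 7.16, with 9 higher and 2 lower, beside higher Cxcl16. Their part was not tested.

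In mouse 1, SMP lines at passage 6 were set against Gra lines at passage 4, and origin and passage cannot be told apart in this comparison. Of the 109 genes, 6 were higher and 1 lower in SMP lines, beside 11.6% and 10.1% of all genes (21.7% called). Il23a was at 7.65, 8.16 and 8.15 in SMP lines, against 6.15, 6.24 and 6.78 in Gra lines, 1.60 ± 0.27 higher (adjusted p = 0.00011). Cxcl14 was at 8.73, 8.72 and 8.81 in SMP lines, against 6.60, 6.67 and 8.12 in Gra lines, 1.62 ± 0.35 higher (adjusted p = 0.0014). Cxcl16 was at 7.02, 7.53 and 7.59 in SMP lines, against 6.22, 6.11 and 6.16 in Gra lines, 1.22 ± 0.22 higher (adjusted p = 0.00024). SMP clones lay above Gra clones in every case, and the 3 calls were kept under every alternative that held them.

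The other 4 calls in SMP lines were Il25, an interleukin-17 family ligand (0.65 ± 0.18, adjusted p = 0.0098; 0.057 without SMP clone 1), Ccl7 (0.61 ± 0.19, adjusted p = 0.023; 0.11 without Gra clone 1), Ccl27a (0.53 ± 0.18, adjusted p = 0.031; 0.11 without Gra clone 2) and Il1r2. Il1r2, the decoy receptor of interleukin-1, had a difference of -0.65 ± 0.19 (adjusted p = 0.013; 0.071 without Gra clone 3). Fibroblast and feeder markers were higher in SMP lines for 12 of 25 genes and lower for 0, with mean levels per array of 7.58 to 7.80 in SMP lines and 6.73 to 7.23 in Gra lines. Endoderm markers were lower in SMP lines for 4 of 8 and higher for 0. The part of these markers was not tested.

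**Figure D5:**
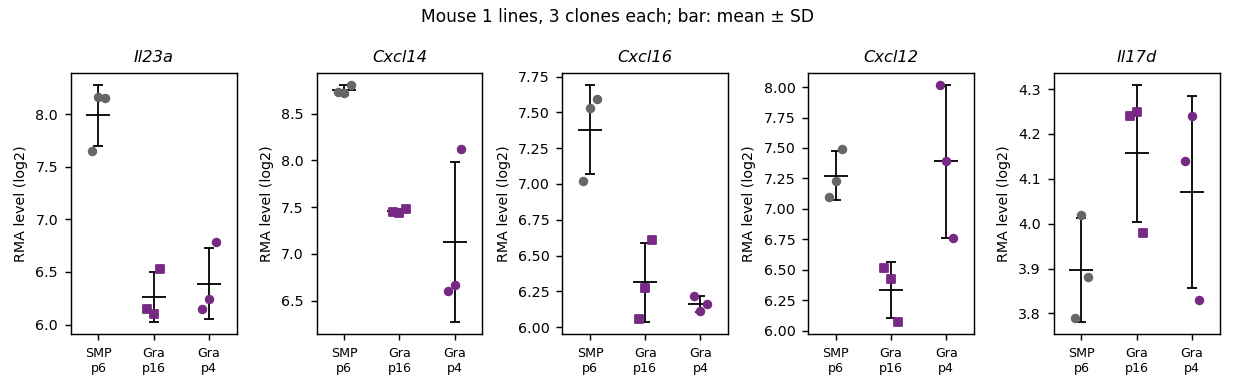
Levels (log2 RMA) of 5 genes in mouse 1 lines: SMP at passage 6, Gra at passage 16 and Gra at passage 4; points are 3 clones, bars the mean ± SD. SMP lines lie above both Gra groups for Il23a, Cxcl14 and Cxcl16, with Cxcl14 at 8.72 to 8.81.

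In Gra lines of mouse 1, 0 of 109 genes changed between passages 16 and 4 in limma (1.14% of all genes), while 4 had an unadjusted p under 0.05. With each line as a block, which pairs its 2 passages, Cxcl12 was called (-1.06 ± 0.20, adjusted p = 0.029), against an adjusted p of 0.054 without the block and 0.035 without the mouse 2 Gra array that stood apart. Gra lines of mouse 2 were then compared with those of mouse 1 at passage 4, with 1 mouse on each side. Here 2 genes were higher and 1 lower, beside 3.30% and 4.43% of all genes (7.73% called). Without the passage 16 array that stood apart 4 were higher and 2 lower, beside 5.54% and 6.88% of all genes. Cxcl12 was at 5.44, 5.40 and 5.71 in mouse 2, against 8.02, 7.39 and 6.76 in mouse 1, a difference of -1.87 ± 0.28 (adjusted p = 9.2e-05), with -1.35 at its other probe set. Il17d was at 5.21, 4.77 and 4.87 in mouse 2, against 4.14, 4.24 and 3.83 in mouse 1, 0.87 ± 0.21 higher (adjusted p = 0.011; 0.077 without mouse 1 clone 3). Cxcl1 was higher in mouse 2 by 0.68 ± 0.19 (adjusted p = 0.023; 0.12 without mouse 2 clone 1). The passage 4 levels of Cxcl12 and Il17d in Gra lines of mouse 2 therefore lay outside the range of Gra lines of mouse 1 as well. Endoderm markers were lower in mouse 2 for 4 of 8 genes.

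Over all comparisons, 56 of 109 genes were called at least once in the table of passages 4, 6 and 16 and 23 of 109 in the passage 10 table, 17 of them in both. These were 51.4% and 21.1% of the genes, beside 68.8% and 40.7% of all genes called at least once over the same 20 and 5 comparisons. Among the genes never called in the first table were Il6ra, the interleukin-6 receptor, Il10rb, Il33, Cxcl5, Cxcl10 and Ccl2. Chemokine receptors were called for 4 of 13 in the first table and 1 of 14 at passage 10 (30.8% and 7.1%). A count at this dimness shows what passed the test and does not show that the rest were equal.

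Genes that carry the signal of these receptors were measured as well. Of 16 interleukin-1 and NF-kB signalling genes, 8 differed among the 4 origins at passage 4 and 4 at passage 10, beside 39.0% and 32.2% of all genes. Of 16 JAK-STAT signalling genes, 10 differed at passage 4 and 7 at passage 10, and at passage 10 Gra lines had 6 of them higher and 1 lower, beside 21.1% and 17.2% of all genes. At passage 16 these counts were 0 and 1, beside 1.52% of all genes. With lists of 16 genes these counts describe the lists and show nothing particular to them. Chemokine relatives with other symbols, such as the fractalkine Cx3cl1, were called for 1 of 7 at passage 4 and 1 of 8 at passage 10.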

How the data were processed

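RNA of 45 iPSC cultures was measured on Affymetrix arrays, 33 at passages 4, 6 and 16 on 1 platform and 12 at passage 10 on another. The deposited values are on a log2 scale and were made by the authors with RMA, per the submitters' processing notes, in a version not given in the sources used here. The 2 tables were normalized separately and were never joined. Of 22690 probe sets, 18003 and 20393 had 1 gene symbol, and each gene was represented by its brightest probe set on average (11807 and 12394 genes). Here limma 3.58.1 in R 4.3.3 fitted 1 mean per group over all arrays of a table, with Benjamini-Hochberg adjustment over all genes and calls at an adjusted p under 0.05. The fit was tested on simulated data with independent noise and no outlying arrays, so that test does not cover the arrays that stood apart. Deviations of same-numbered clones between passages 16 and 4, over the 2000 most variable genes, correlated at 0.169 to 0.384 in Gra lines of mouse 1 and 0.199 to 0.311 in those of mouse 2. Their numbers were therefore taken to pair the arrays. Clones of unlike number were not correlated for comparison, so these values do not settle the pairing. TTF, B cell and T cell lines ranged from -0.32 to 0.41 and were not taken as paired. The main fit left the pairing out in all lines, and a block per line was run only as an alternative. No label states that equal numbers mark 1 line. Groups came from the labels, with 3 clones each, which limits the precision. The members, gene lists and tests were chosen with earlier results of these data known.

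Genes were named where called with clones not overlapping between the sides, up to 10 in each direction by size (up to 12 for tests among origins), beside the 2 brightest of each class and a list of 24 genes. Further genes named with their values were chosen after those values were seen. Alternatives were the mean of probe sets, quantile normalization, only the arrays compared, only genes above the median gene, clone or line blocks and leaving out each array.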

Additional observations from a re-analysis of the deposited data

Results flagged for a closer look

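The change from passage 4 to passage 16 differed among the 4 origins of mouse 2, by limma's moderated F-test of the difference itself, for 8 genes. The adjusted p was 3e-06 for Cxcl16, 0.00011 for Il23a, 0.0012 for Il4i1 and 0.0015 for Cxcl12. Cxcl16 changed by 1.07 in Gra lines and -1.40 in T cell lines. Cxcl12 had changes of 0.53 in Gra lines and -1.48 in T cell lines, with 1.68 and -0.25 at its other probe set. The further 4 were Ccr1l1 (adjusted p = 0.026), Ccr8 (adjusted p = 0.038), Il17b (adjusted p = 0.041) and Cxcl1 (adjusted p = 0.049), and each of these calls was lost under at least 1 alternative.

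In the main fit, which did not pair the passages of a line, the passage change of Gra lines differed between the mice for Cxcl12. The difference was 1.58 ± 0.39 in mouse 2 minus mouse 1 (log2, SE, adjusted p = 0.023), with changes of 0.53 in mouse 2 and -1.06 in mouse 1. With 1 mouse on each side, this p-value covers the spread between clones and not that between mice. Without clone 1 of mouse 1 at passage 4 the difference was 1.27 (adjusted p = 0.061). With each line as a block in limma, the Cxcl12 change was 0.53 ± 0.20 in mouse 2 (adjusted p = 0.06). In mouse 1 it was -1.06 ± 0.20 with the block (adjusted p = 0.029). With 3 clones a group, single clones were not screened for outlying values.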

How the results depend on the processing

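No called difference of a single gene changed its sign under the alternatives run, which did not include the other probe sets taken alone. Of 50 called differences in genes with several probe sets, 39 had all probe sets in the same direction and 11 did not. The passage calls over all origins, 12 higher and 6 lower with all arrays, were 6 higher and 13 lower without the 2 arrays that stood apart. The latter stood beside 16.3% and 12.4% of all genes. Counts of called genes are given in the order of the report, without shares of all genes, and describe dependence on the setting only. With only genes above the table's median gene, 2 of the 109 genes were left (Cxcl14 and Ccl25) and 0 at passage 10, where no value was possible; the counts were then 2 among origins at passage 4, 0 at passage 16, 3 and 0 for each origin against the others, 0 for passage over all origins, 1 within origins, 1 for unequal change, 1 for SMP against Gra lines, and 0 for both comparisons of the mice. With only the arrays compared they were 0 among origins and 0 per origin at passage 16, 9 for passage over all origins, 11 within origins, 4 for unequal change, 14 for SMP lines, 10 for mouse 2 against mouse 1 at passage 4 and 0 for their passage changes. Without both arrays that stood apart, an alternative chosen after seeing the data, they were 28 and 0 among origins at passages 4 and 16, 56 and 0 per origin, 13 for unequal change, 1 for passage in Gra lines of mouse 1 and 8 for mouse 2 against mouse 1. The mean of probe sets gave 1 in Gra lines of mouse 1, and quantile normalization gave 2 for the passage change of mouse 2 minus mouse 1.

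The clone numbers were taken to pair the passages in Gra lines of both mice, which no label states, but not in the other origins or over all origins. With the clone number as a replicate block, the counts at passage 16 were 2 among origins and 11 per origin, and with the line as a block they were 5 for unequal change and 1 in Gra lines of mouse 1. The line block kept 46 and lost 26 calls of single genes, and in Gra lines of mouse 2 the counts with it were 18 higher and 2 lower, against 24 and 2.

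Leaving out 1 array at a time gave 10 to 22 calls among origins at passage 4 (13 with all arrays), 12 to 17 at passage 10 (15) and 0 to 23 at passage 16 (1). Per origin it gave 18 to 46 (26), 25 to 34 (33) and 0 to 43 (6). Passage over all origins gave 12 to 36 (18), within origins 24 to 70 (45), unequal change 4 to 20 (8), Gra lines of mouse 1 0 to 1 (0), SMP lines 5 to 8 (7), mouse 2 against mouse 1 1 to 6 (3) and their passage changes 0 to 12 (1). The highest counts at passage 16 and with passage came without clone 2 of the Gra lines of mouse 2 at passage 16. The share of all genes called was taken only for the repeat without clone 3 of these lines at passage 16. For single genes, 584 repeats with 1 array left out lost the call and 4216 kept it. Low signal limits what could be called, since most of these genes lay near the lower end of the scale.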
